A study of Mus musculus with 18 samples.

Results

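The nuclear genes that encode the subunits of the mitochondrial respiratory chain and of ATP synthase were followed in the axis of control mouse embryos and of embryos with a conditional deletion of Meis1 and Meis2, which encode transcription factors. Members were the gene identifiers annotated as protein coding whose symbol began with Nduf followed by a, b, c, s or v and a number, with Uqcr, with Cox4 to Cox8 or with Atp5, together with Sdha, Sdhb, Sdhc and Sdhd. This rule used names only and found 84 of the 53465 gene identifiers in the table. Complex I had 37 members, complex II 4, complex III 8, complex IV 18 and ATP synthase, counted here as complex V, 17. RNA came from 9 embryos at embryonic day 9 with 20 to 24 somites, each dissected into an anterior piece bearing the older somites and a posterior piece with the axial bud and the youngest somites. The 5 control embryos and the 4 double knockout (DKO) embryos gave 18 poly(A) libraries, with 5 control and 4 DKO libraries from each piece. In DKO embryos Meis1 and Meis2 were deleted conditionally with Delta1Cre, a Cre recombinase driven by the Delta1 (Dll1) gene of the presomitic mesoderm, so cells outside that lineage can keep both genes. The alleles carried by the control embryos were not given in the sources used here. Embryos were matched between the pieces by genotype, sex label and somite number, and each embryo is 1 replicate in each piece. The main fits between the pieces and of the interaction did not use this pairing, which entered as an embryo block in an alternative alone.

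Complex I (NADH dehydrogenase) and complex II (succinate dehydrogenase) pass electrons to ubiquinone. Complex III (cytochrome bc1) passes them on to cytochrome c, and complex IV (cytochrome c oxidase) to oxygen. Complexes I, III and IV pump protons, and ATP synthase uses the proton gradient to make ATP. All complexes but II combine nuclear subunits with a few encoded by mitochondrial DNA, so their assembly draws on both genomes. Several nuclear subunits of complex IV exist as pairs of genes, of which one is used in most tissues and the other in heart, muscle, lung or testis.

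Meis1 stood at 125 ± 8.64 CPM (SD, n = 5; counts per megacount, scaled between libraries by the trimmed mean of M values) in anterior controls and at 102 ± 9.52 in anterior DKO (n = 4). Meis2 stood at 190.2 ± 10.0 and 143 ± 11.3 CPM. In the posterior piece Meis1 was at 84.5 ± 15.25 and 57.5 ± 11.8 CPM, and Meis2 at 143 ± 16.8 and 99.5 ± 11.35. Neither passed the edgeR test in either piece (adjusted p between 0.0522 and 0.336), and gene counts cannot show whether the reads cover the deleted part. Libraries held 12.65 to 38.18 megacounts. Markers of the axial bud and presomitic mesoderm summed to 252 to 461 CPM in the posterior libraries and to 27.9 to 32.5 CPM in the anterior ones, as the region labels have it. Control embryo 1 went against its sex label in both libraries. One library stood apart in the genes followed here: in the posterior piece of DKO embryo 4 the 84 genes summed to 11698 CPM, against 8301 to 10197 CPM in the other libraries. Other genes with a transcript under 1000 bases were high in it by the same measure, a median of 0.36 on the log2 scale above their own mean over the 18 libraries (488 genes), and genes of 4000 bases or more were low, by a median of -0.25 (3738 genes). The posterior piece of control embryo 5 was lowest, at 8301 CPM, with a median of -0.18 for the other genes under 1000 bases. Many of the values that use the posterior piece of DKO embryo 4 are therefore also given without that embryo. Some are given after removal of each library's trend with transcript length, an alternative chosen after seeing the data.

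**Figure D1:**
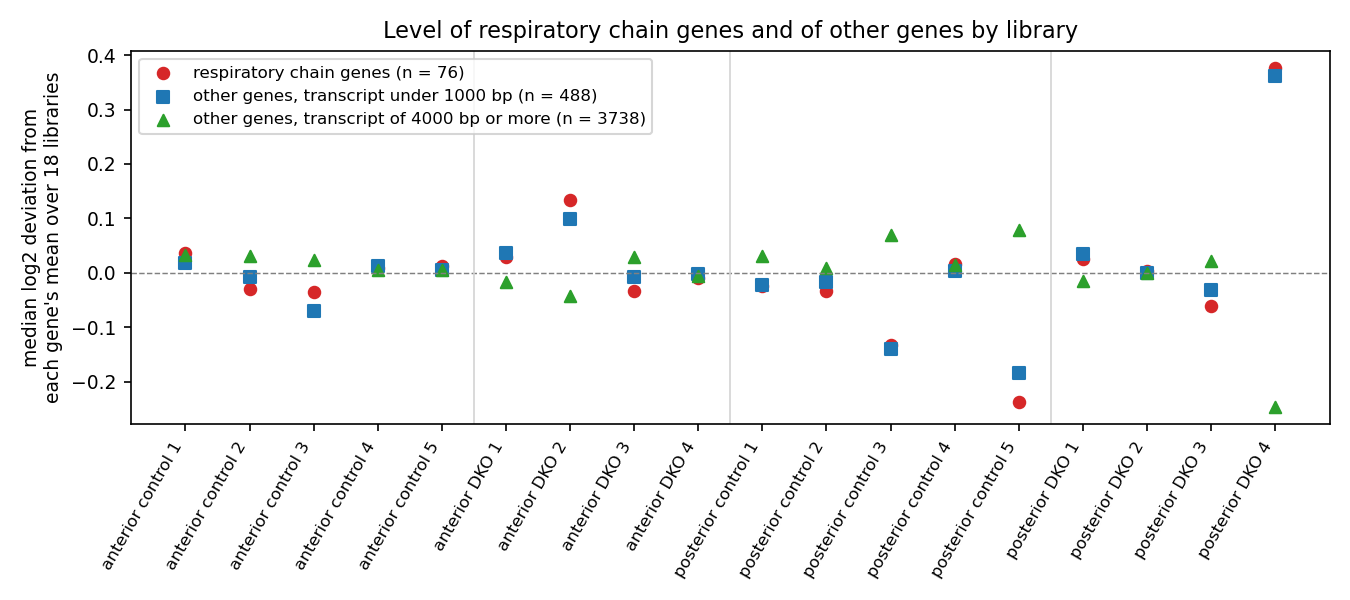
Median log2 deviation of each gene from its own mean over 18 libraries (y axis) in each library (x axis), for 76 respiratory chain genes with a mean of at least 5 CPM (circles), 488 other genes with a principal transcript under 1000 bp (squares) and 3738 other genes of 4000 bp or more (triangles). Of the respiratory chain genes, 44 have a principal transcript under 1000 bp and 32 have one of 1000 bp or more. As a set they lie close to the other genes under 1000 bp in each library. Posterior DKO 4 lies highest at 0.38 for the respiratory chain genes.

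Levels between genes were compared per transcript length, as TPM (a level per length that sums to the same total in every library) computed from the counts and the exon length of each gene. The median level over the members that passed the filter on low counts was 123 TPM in complex I (37 genes), 166 in complex II (4), 236 in complex III (8), 240.1 in complex IV (14) and 220.5 in ATP synthase (17). Atp5b, the catalytic beta subunit of the F1 head of ATP synthase, was the most abundant member, with 974 ± 15.8 TPM in anterior controls, 963 ± 17.8 in anterior DKO, 969.7 ± 29.7 in posterior controls and 969 ± 33.2 in posterior DKO. These 4 values differed by less than their spread. The lowest member of ATP synthase was Atp5s, a coupling factor that is not a structural subunit, at 7.58 TPM over the 18 libraries. In complex IV the levels ran from 648 TPM for Cox6a1, which is used in most tissues, to 2.62 TPM for Cox7a1, the heart and muscle form. In complex I they ran from 315 TPM for Ndufc2, an accessory subunit of the membrane arm, to 4.63 TPM for Ndufa4l2. Complexes II and III covered narrower ranges, from 96.7 TPM for Sdhc to 289 TPM for Sdhd, the 2 membrane anchors of succinate dehydrogenase, and from 131 TPM for Uqcrq to 323 TPM for Uqcr10, which are small subunits of complex III. With the length of the principal transcript in place of all exons, the medians were 139, 188, 266, 324 and 319 TPM in the same order of complexes. The lowest member of each complex was the same with that length, as were the highest of complex II and ATP synthase. The highest of the other complexes were then Ndufa4 (423 TPM, with Ndufc2 at 238), Uqcrh (446 TPM, with Uqcr10 at 298) and Cox4i1 (745 TPM, with Cox6a1 at 546).

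**Figure D2:**
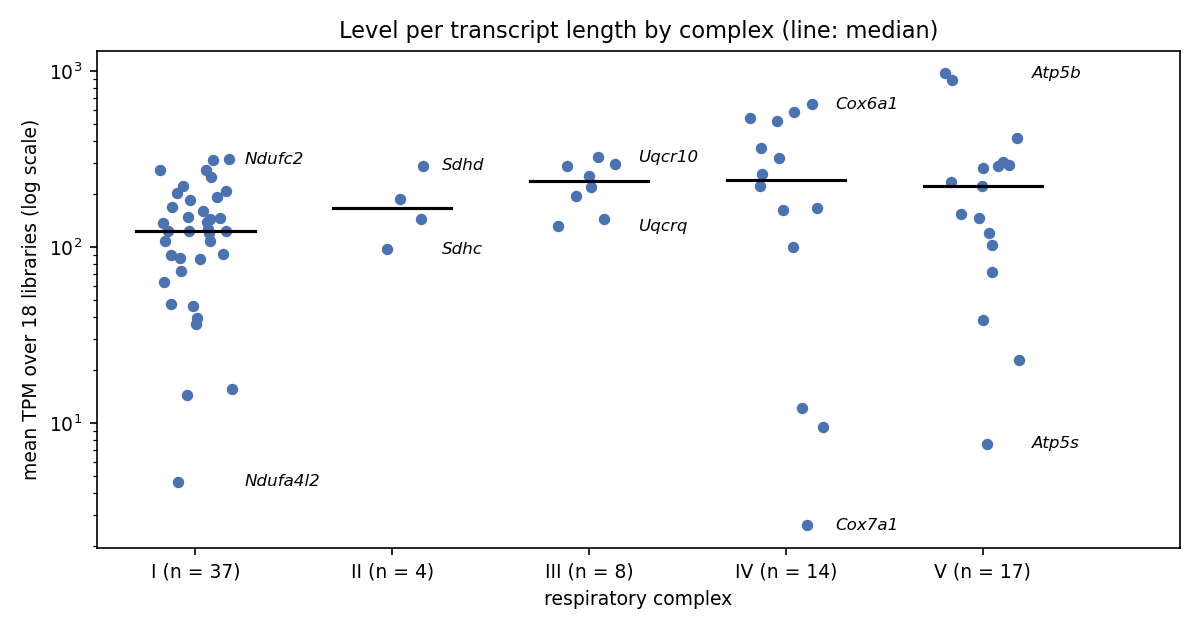
Mean TPM over the 18 libraries (y axis, log scale) of each of the 80 members that passed the filter, by complex (x axis), with the median as a line and the highest and lowest member of each complex named. Complexes I, IV and V hold both abundant genes and genes under 10 TPM, while all members of complexes II and III lie between 96.7 and 323 TPM.

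Most members varied little between libraries. The coefficient of variation over the 18 libraries had a median of 10.7% over 80 genes, and 72 of them were under 15%. The 5 genes above 25% were Cox4i2 (66.5%), Ndufa4l2 (34.65%), Cox6b2 (29.7%), Cox7a1 (29.6%) and Atp5g2 (27.0%), all of them a minor gene of a set of isoforms. Cox7a1 was read from only 3 to 23 counts a library, so counting error enters its spread. Atp5g2, 1 of 3 genes for the c subunit of the membrane ring of ATP synthase, ranged from 10.99 to 29.99 CPM with no order by group. Of the 3, Atp5g3 had 418 TPM, Atp5g1 72.1 and Atp5g2 38.3 over the 18 libraries. With the principal transcript's length Atp5g3 had 865 TPM and the other two changed order, Atp5g1 at 51.5 and Atp5g2 at 60.1.

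Of the tissue-restricted forms of complex IV, 4 were close to absent. Cox6a2 and Cox8b, the forms of heart and skeletal muscle, and Cox7b2 did not reach more than 5 counts in any library. Cox8c was listed at 0 in all 18, which allows up to 3 counts, or 0.0791 to 0.233 CPM depending on the library. These 4 did not pass the filter. Their partners Cox6a1, Cox8a and Cox7b averaged 648, 583 and 222 TPM. Cox6b2, the testis form, made up 1.09 to 1.93% of the per-length level of Cox6b2 and Cox6b1 together in anterior controls and 1.51 to 2.76% in posterior controls. In DKO the share was 1.38 to 1.94% and 1.98 to 2.31%. With the principal transcript's length the mean shares were 2.34 and 3.37% in controls and 2.66 and 3.45% in DKO. Cox7a1 stayed at 0.28 to 1.22% of its pair with Cox7a2.

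Cox4i2 was the member that differed most between the pieces. It encodes the alternative form of subunit 4 of cytochrome c oxidase, known from lung and for a part in oxygen sensing, and lies at chr2:152754173-152765037 (GRCm38, + strand). Anterior controls gave 1.25, 1.47, 1.71, 1.09 and 1.30 CPM and posterior controls 4.54, 5.16, 3.53, 5.14 and 2.75 CPM. Anterior DKO pieces gave 2.14, 1.54, 1.79 and 1.11 CPM and posterior DKO pieces 5.30, 3.04, 8.12 and 6.56 CPM. All posterior libraries lay above all anterior ones, and within each of the 9 embryos the posterior piece was the higher. The log2 fold change was 1.64 (SE 0.21, edgeR adjusted p = 0.000101) in controls, a 3.12-fold difference, and 1.79 (SE 0.31, adjusted p = 0.00255) in DKO. Under all alternatives it stayed past the threshold, with log2 fold changes of 1.49 to 1.78 in controls and 1.56 to 2.005 in DKO. The difference of the 2 effects was 0.15 (SE 0.38, adjusted p = 0.999). Cox4i2 remained the minor form: its share of the per-length level of Cox4i1 and Cox4i2 was 0.98 ± 0.19% in anterior controls, 1.11 ± 0.28% in anterior DKO, 3.16 ± 0.48% in posterior controls and 3.604 ± 1.46% in posterior DKO. With the principal transcript's length these means were 0.52, 0.60, 1.70 and 1.95%. Cox4i1 itself was at 273 ± 10.9, 287 ± 18.8, 251 ± 28.0 and 305 ± 46.7 CPM in these groups and passed no test. In bulk RNA, more cells of a type that expresses a gene and more RNA per cell cannot be told apart. Markers of the axial bud and presomitic mesoderm (7 of 7 in each genotype) and of gut endoderm (5 of 7) were higher in the posterior piece, and their part in the level of Cox4i2 was not tested.

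**Figure D3:**
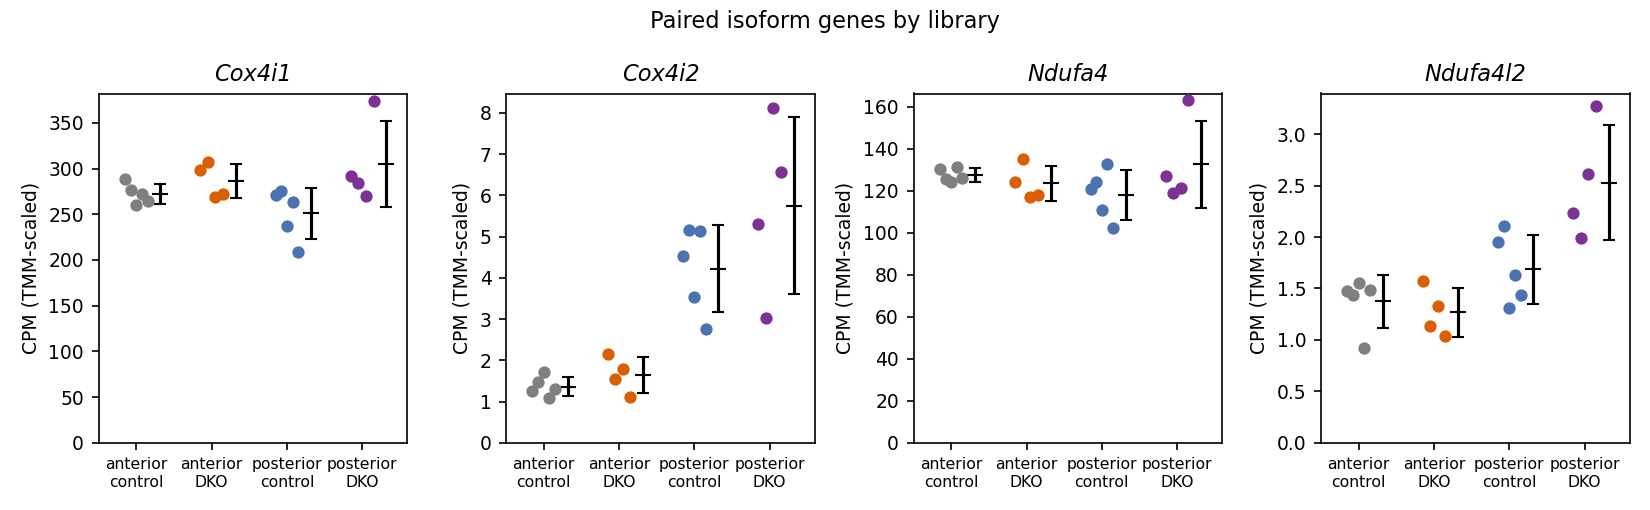
TMM-scaled CPM (y axes, from 0) of Cox4i1, Cox4i2, Ndufa4 and Ndufa4l2 in each library by group (x axes), with mean and SD beside the points. Cox4i2 lies at 1.09 to 2.14 CPM in the anterior libraries and at 2.75 to 8.12 CPM in the posterior ones, and its partner Cox4i1 overlaps between all groups.

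Ndufa4l2 is the minor partner of Ndufa4, is known as a target of hypoxia-inducible factor, and lies at chr10:127514967-127517154 (GRCm38, + strand). Ndufa4 itself is now counted with complex IV. Ndufa4l2 gave 1.57, 1.13, 1.33 and 1.04 CPM in the anterior DKO pieces and 2.23, 1.99, 2.62 and 3.28 CPM in the posterior ones, with no overlap. Its log2 fold change between the pieces of DKO embryos was 0.98 (SE 0.23, edgeR adjusted p = 0.0134). Without DKO embryo 3 the adjusted p was 0.0645, and without DKO embryo 4 the log2 fold change was 0.74 with an adjusted p of 0.0883. In controls the values overlapped, 0.92 to 1.56 CPM against 1.31 to 2.11 CPM (log2 fold change 0.31, SE 0.22, adjusted p = 0.345). The difference between the genotypes was 0.68 (SE 0.30, adjusted p = 0.999), so a regional difference particular to DKO was not shown. Ndufa4 was at 118 to 133 CPM on average in the 4 groups.

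In control embryos, 11 members were lower in the posterior than in the anterior piece and Cox4i2 alone was higher, of 79 tested (edgeR, adjusted p under 0.05). That is 13.9% lower and 1.27% higher, against 13.3% and 12.1% of the 15294 genes tested. The share of lower members was thus near the background in this fit, and the median log2 fold change was -0.07 over the members and -0.01 over all genes. The members' median was -0.03 without control embryo 5, -0.10 without control embryo 4 and -0.02 after removal of the length trend. Of complex I, 6 of 37 were lower, all accessory subunits, and none of the 7 core subunits that carry the redox centres passed. Of complex II 1 of 4 was lower, of complex III 0 of 8 (1 of them with an unadjusted p under 0.05), of complex IV 2 of 13 and of ATP synthase 2 of 17.

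The lower members fell by 8.62 to 18.7%. Ndufc1 and Ndufb11, accessory subunits of the membrane arm of complex I, showed the largest changes among the lower members of that complex. Ndufc1 had 37.9, 37.6, 38.1, 40.6 and 38.8 CPM in the anterior and 33.7, 32.2, 33.35, 32.35 and 24.8 CPM in the posterior controls, which is -0.30 on the log2 scale (SE 0.08, adjusted p = 0.0124). Ndufb11 had 93.3, 84.03, 82.5, 85.7 and 87.4 CPM against 80.25, 71.4, 72.03, 80.7 and 63.1 CPM (-0.23, SE 0.07, adjusted p = 0.0201). Neither overlapped between the pieces. Sdhc, a membrane anchor of succinate dehydrogenase, had 105 to 111 CPM against 92.6 to 105 CPM (-0.15, SE 0.04, adjusted p = 0.0202), with the highest posterior value just above the lowest anterior one.

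In complex IV, Cox6a1 had 157, 153, 153, 155 and 154 CPM in anterior and 148, 129.5, 123, 135 and 109 CPM in posterior controls (-0.26, SE 0.07, adjusted p = 0.0143). Cox7a2l, which takes part in joining complexes III and IV into supercomplexes, had 141, 131.5, 131, 128 and 139 CPM against 125, 117, 114, 119 and 108 CPM (-0.20, SE 0.05, adjusted p = 0.0075). In both genes every anterior control lay above every posterior one, and Cox7a2l was the lower member that passed under every alternative. In ATP synthase the peripheral stalk subunits Atp5h (-0.15, SE 0.05, adjusted p = 0.045) and Atp5f1 (-0.13, SE 0.04, adjusted p = 0.0486) passed by a small margin. Atp5h averaged 152 ± 5.04 and 136 ± 9.47 CPM, and Atp5f1 312 ± 13.1 and 285 ± 9.92 CPM. The other 4 lower members were Ndufa8, Ndufb5, Ndufb9 and Ndufs4. After removal of the length trend 7 of the 11 were still past the threshold (8.86% of members, where 12.8% of all genes were lower), and 2 members were higher, Cox4i2 and Ndufa11 (2.53%, where 12.9% of all genes were). Leaving out control embryo 1, 2, 3, 4 or 5 left 5, 4, 3, 7 and 4 lower members, in that order. These are 6.33, 5.06, 3.75, 8.75 and 5% of the members tested, each below the share of all genes called lower in the same fit, which was 9.79, 11.7, 10.6, 9.9 and 11%. Cox4i2 was the single higher member in each of these fits, where 9.15 to 10.5% of all genes were higher. With the embryo as a block, 17 members were lower (21.5%) and Cox4i2 was higher, where 17.5% and 16.1% of all genes were.

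Promoters of members called lower in the posterior controls, a set near the background in size, are shown as examples. Those of Cox6a1 and Atp5h hold 2 of the 3 motifs searched for. That of Ndufc1, which had the largest change among the lower members, holds none of the 3 in the 250 bases searched. The windows of Cox7a2l and Ndufb11, not printed, hold none either. Shared regulation of these members was not tested. The windows printed were picked from the lower members with these matches and changes known. Each window is the 250 bases before the start of the gene on its own strand in the RefSeq annotation of GRCm38.p6. They are chr5:115348959-115349208 (- strand) for Cox6a1, chr11:115419920-115420169 (- strand) for Atp5h and chr3:51408956-51409205 (- strand) for Ndufc1. Capitals mark matches, on either strand, to CCGGAAG (the core bound by ETS factors such as GABP) or GCGCANGCG (the type bound by NRF1), 2 classes of factor known for the promoters of respiratory chain genes. The first run of capitals in Cox6a1 joins 2 overlapping matches, 1 on each strand.
Cox6a1: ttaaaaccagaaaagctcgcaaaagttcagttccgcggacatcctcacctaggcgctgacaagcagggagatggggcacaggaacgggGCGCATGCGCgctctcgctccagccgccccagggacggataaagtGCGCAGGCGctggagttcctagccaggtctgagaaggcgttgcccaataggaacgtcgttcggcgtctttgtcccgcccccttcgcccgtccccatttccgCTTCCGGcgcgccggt
Atp5h: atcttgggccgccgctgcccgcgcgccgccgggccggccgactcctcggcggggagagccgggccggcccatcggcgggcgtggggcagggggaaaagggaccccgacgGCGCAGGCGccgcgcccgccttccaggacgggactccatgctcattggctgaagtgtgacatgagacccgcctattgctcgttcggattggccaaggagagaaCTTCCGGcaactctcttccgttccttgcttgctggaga
Ndufc1: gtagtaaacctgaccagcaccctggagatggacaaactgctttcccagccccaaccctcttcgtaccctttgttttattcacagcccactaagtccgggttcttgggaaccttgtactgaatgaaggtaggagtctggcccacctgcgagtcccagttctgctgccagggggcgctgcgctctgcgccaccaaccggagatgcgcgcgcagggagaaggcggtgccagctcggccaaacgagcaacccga
In windows of 300 bases (250 before and 50 after the start), found for 66 of the 84 members, GCGCANGCG occurred in 20 members (30.3%) and in 7.03% of 27025 genes, and CCGGAAG in 16 members (24.2%) and in 9.93% of genes. AAGATGGCG, the type bound by YY1, occurred in 7 members (10.6%) and in 1.64% of genes. In the 250 bases before the start alone, GCGCANGCG occurred in 14 members (21.2%) and in 5.86% of genes. There CCGGAAG occurred in 12 members (18.2%) and in 7.83% of genes, and AAGATGGCG in 1 member (1.52%) and in 0.71% of genes. The 250 bases before the start had a median of 56.0% G and C over the members' windows and 52.4% over all windows, and its part in these shares was not tested. A match describes the letters of the window and not a site in use.

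In DKO embryos, 2 of 79 members were higher in the posterior piece, Cox4i2 and Ndufa4l2, and none was lower, against 8.76% and 9.7% of the 15777 genes tested. No member had an unadjusted p under 0.05 in the lower direction, but 7 did without DKO embryo 4, 4 after removal of the length trend and 2 with scaling by library totals. These are 8.86, 5.06 and 2.53% of 79 members, below the 14.9, 16.1 and 16.9% of all genes in the same fits. DESeq2 called none lower and 4 higher, where it called 10.3% of all genes higher. The median log2 fold change was 0.07 over the members, -0.05 without DKO embryo 4, 0.12 without DKO embryo 2, 0.04 with scaling by library totals and 0.01 after removal of the length trend. With DKO embryo 4 left out, 1 member was higher (Cox4i2) and 1 was lower (Uqcrq, -0.24, edgeR adjusted p = 0.0169). That is 1.27% each way, against 7.95% higher and 8.22% lower of all genes. Within embryos, 21 of 80 members were lower in the posterior piece of all 5 controls, where 20.6% of 16428 genes were, and 2 were higher in all 5, where 18.7% of genes were. In all 4 DKO embryos 2 members were lower and 7 higher, where 19.9% and 18.3% of genes were. Embryo 4 sets the first of these counts: in the other 3 DKO embryos 19 members were lower and 7 higher, where 26.4% and 26.2% of genes were. Over all 9 embryos Sdhc and Uqcrc2 were lower in every posterior piece and Cox4i2 was higher in every one, where 13.1% and 11% of genes were. Over the 8 embryos other than DKO embryo 4, 13 members were lower in every posterior piece and Cox4i2 was higher, where 15.5% and 14.1% of genes were. Uqcrc2, a core protein of complex III, differed by -0.16 to -0.03 on the log2 scale within embryos, and Sdhc by -0.23 to -0.01.

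**Figure D4:**
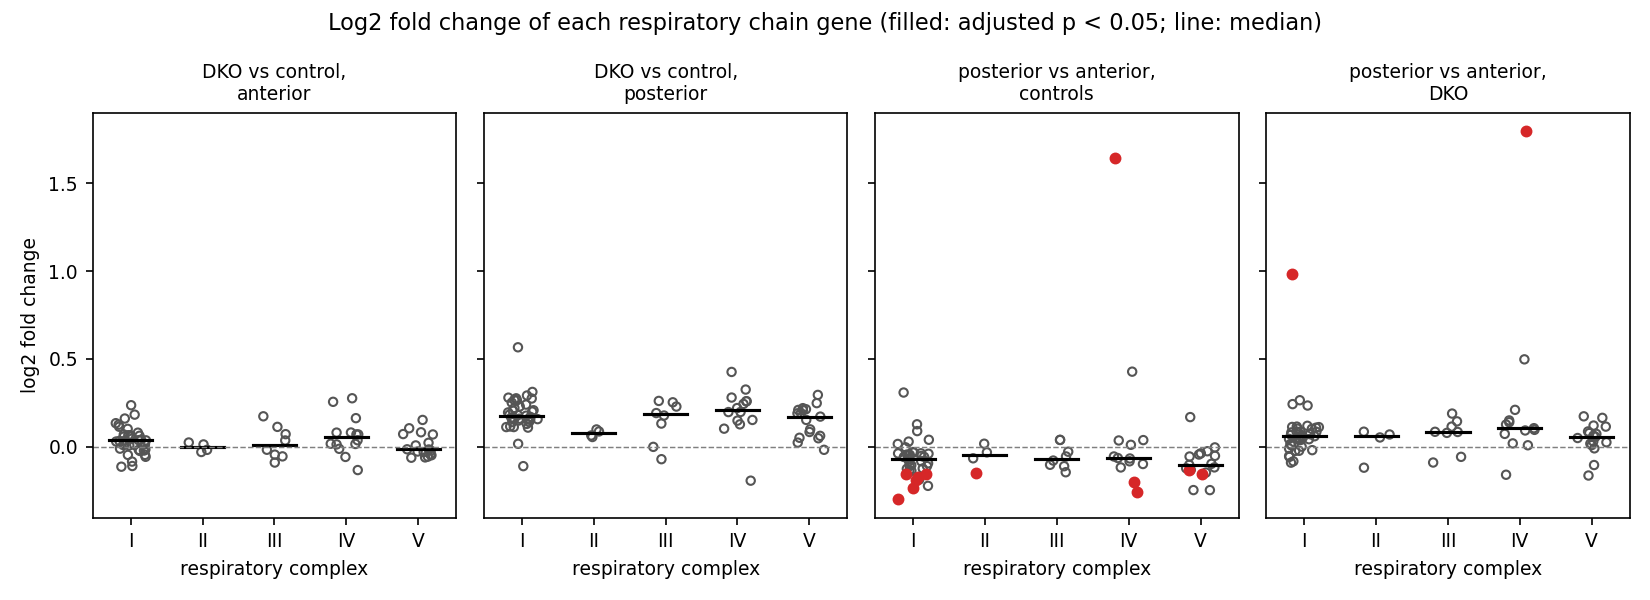
Log2 fold change of each member tested (y axis) by complex (x axis) in 4 comparisons, with members of adjusted p under 0.05 filled and the median as a line. Filled points appear in the posterior against anterior comparisons alone: 12 in controls, of which Cox4i2 at 1.64 is the higher one, and 2 in DKO.

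In the anterior piece no member of 80 passed the test of DKO against control, where 6 of 15238 genes (0.0394%) did. At an unadjusted p under 0.05, 9 members were higher in DKO and 1 lower, against 6.41% and 6.61% of all genes. These numbers were 5 higher and 4 lower without DKO embryo 2, the same after removal of the length trend, and 1 of each in one fit of all 18 libraries. All genes gave 6.75% higher and 6.89% lower in the first of these fits, 6.37% and 6.5% in the second and 4.33% and 4.9% in the third. The groups did not overlap for 6 higher members and 1 lower, against 2.47% and 2.61%. The median log2 fold change was 0.02 over the members and 0.00 over all genes, and the members' median was 0.00 without DKO embryo 2, 0.04 without DKO embryo 3 or control embryo 1 and -0.01 after removal of the length trend. DESeq2 called 2 members higher, Uqcrq and Cox6a1, and called 0.768% of all genes higher. By complex, the medians were 0.04 (I), -0.00 (II), 0.01 (III), 0.05 (IV) and -0.01 (V).

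The 3 members with the smallest p in the anterior piece were Uqcrq, Ndufa1 and Cox6a1. Uqcrq, which sits beside the cytochrome b of complex III, had 80.7, 82.1, 74.9, 76.6 and 76.9 CPM in controls and 90.75, 88.7, 86.5 and 87.3 CPM in DKO. All DKO values lay above all control values, and the difference was 0.17 on the log2 scale (SE 0.04, adjusted p = 0.12 by edgeR). Ndufa1, an X-linked accessory subunit of complex I, had 27.2, 25.3, 27.6, 27.6 and 26.7 CPM against 32.65, 33.6, 31.7 and 28.7 CPM, again without overlap (0.24, SE 0.06, adjusted p = 0.165). Cox6a1 had 153 to 157 CPM in controls and 173, 186, 158 and 173 CPM in DKO (0.16, SE 0.05, adjusted p = 0.202).

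In the posterior piece no member of 80 passed either, where 2 of 15936 genes (0.0126%) did. DESeq2 called none as well. At an unadjusted p under 0.05, 13 members were higher in DKO and none lower, against 5.27% and 5.74% of all genes. DESeq2 had 20 of 80 higher at that p and none lower, against 5.54% and 6.22%. Without a filter 23 of 83 were higher and none lower, against 3.74% and 4.2%. The groups did not overlap for 4 higher members and no lower one, against 2.15% and 2.12%, and for the same numbers of members without DKO embryo 4, against 3.26% and 2.69%. The median log2 fold change was 0.18 over the members and 0.01 over all genes. Of the members 75 of 80 values were positive (93.75%), against 52.4% of all genes. Without DKO embryo 4 the median was 0.06 and 68 of 80 values were positive. In that fit 2 members were higher at an unadjusted p under 0.05 and none lower, against 3.64% and 3.94% of all genes. That number of higher members was 3 without control embryo 3 or control embryo 5, against 4.18% and 4.38% of all genes, and 33 without DKO embryo 3, against 6.56%. In one fit of all 18 libraries 35 members were higher and 1 lower at that p, against 8.04% and 8.1% of all genes. After removal of the length trend the median was 0.02 and 54 of 80 values were positive, with 1 member higher and 2 lower at that p, against 4.54% and 4.59%. Other genes with a transcript under 1000 bases had a median of 0.17 in the same comparison, and those of 4000 bases or more -0.09.

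By complex, the posterior medians were 0.18 (I), 0.08 (II), 0.19 (III), 0.21 (IV) and 0.17 (V). Without DKO embryo 4 they were 0.06, 0.02, 0.07, 0.09 and 0.05 in that order. The members with the smallest p were Ndufc2, Ndufa13 and Ndufa4l2, all of complex I by name. Ndufc2 had 77.05, 76.6, 70.9, 71.1 and 61.5 CPM in controls and 81.6, 82.6, 81.2 and 98.3 CPM in DKO, without overlap (0.26, SE 0.08, adjusted p = 0.385). Ndufa13, also known as GRIM-19, had 64.8, 65.65, 59.2, 62.9 and 50.6 CPM against 67.2, 70.1, 69.1 and 95.2 CPM (0.31, SE 0.11, adjusted p = 0.426). In both genes DKO embryo 4 was the highest library and control embryo 5 the lowest. Ndufa4l2 had 1.95, 2.11, 1.31, 1.63 and 1.44 CPM against the DKO values given above, with overlap (0.57, SE 0.22, adjusted p = 0.443).

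Summed over its members, each complex was highest in the posterior piece of DKO embryo 4 and lowest in that of control embryo 5. The 84 genes summed to 9576 ± 158 CPM in anterior controls, 9648 ± 398 in anterior DKO, 9108 ± 522.5 in posterior controls and 10032 ± 1137 in posterior DKO, or 9477 ± 301 (n = 3) without DKO embryo 4. Complex I summed to 2449 ± 28.1, 2503 ± 129, 2325 ± 147 and 2618 ± 328 CPM in the same order, and ATP synthase to 4248 ± 89.4, 4206 ± 125, 4036 ± 234 and 4345 ± 426 CPM. In posterior DKO complexes II, III and IV summed to 603 ± 36.7, 901 ± 102.5 and 1565 ± 252 CPM. Without DKO embryo 4 the posterior DKO sums were 2457 ± 64.8 CPM for complex I, 587 ± 20.8 for complex II, 850.1 ± 16.7 for complex III, 1442 ± 65.3 for complex IV and 4142 ± 158 for ATP synthase. The groups overlapped in these sums.

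The test of whether the DKO effect differed between the pieces called no member, and 0% of the 16428 genes tested (DESeq2 called 10 genes, no member among them). At an unadjusted p under 0.05 it had 1 member higher, Ndufa4l2, and none lower, against 2.03% and 1.42% of all genes. Without DKO embryo 2 it had 16 higher and none lower, against 3.41% and 3.37% of all genes, and without DKO embryo 4 none either way, against 1.81% and 1.01%. The comparisons between genotypes and between pieces share libraries, so their values are not independent. The median of the difference was 0.14 over the members, 0.21 without DKO embryo 2, 0.09 without control embryo 5, 0.03 without DKO embryo 4 and 0.03 after removal of the length trend.

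The summed level of the 13 subunits encoded by mitochondrial DNA ran from 10222 to 15681 CPM over the libraries, with both ends in control embryos. The sum was 10748 and 10222 CPM in the anterior and posterior piece of control embryo 1, and 11506 and 11852 in control embryo 2. It was 14840 and 13554 in control embryo 3, 14818 and 14605 in control embryo 4, and 15681 and 14157 in control embryo 5. DKO embryos ranged from 12013 to 13744 CPM over both pieces, inside the range of the controls. None of the 13 passed the test between genotypes. Between the pieces of DKO embryos 1 passed, mt-Atp6, a subunit of the membrane part of ATP synthase, with 176 to 287 CPM in the anterior and 295 to 575 CPM in the posterior libraries (0.88, SE 0.21, adjusted p = 0.0156). That is 7.69% of the 13, near the 8.76% of all genes called higher there. In controls none of the 13 passed between the pieces, with log2 fold changes of -0.16 to 0.21. The edgeR test of the difference between the genotypes called none (smallest adjusted p = 0.999), so a regional difference particular to DKO was not shown. Copies of mitochondrial DNA in the nuclear genome can share the reads of mt-Atp6.

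**Figure D5:**
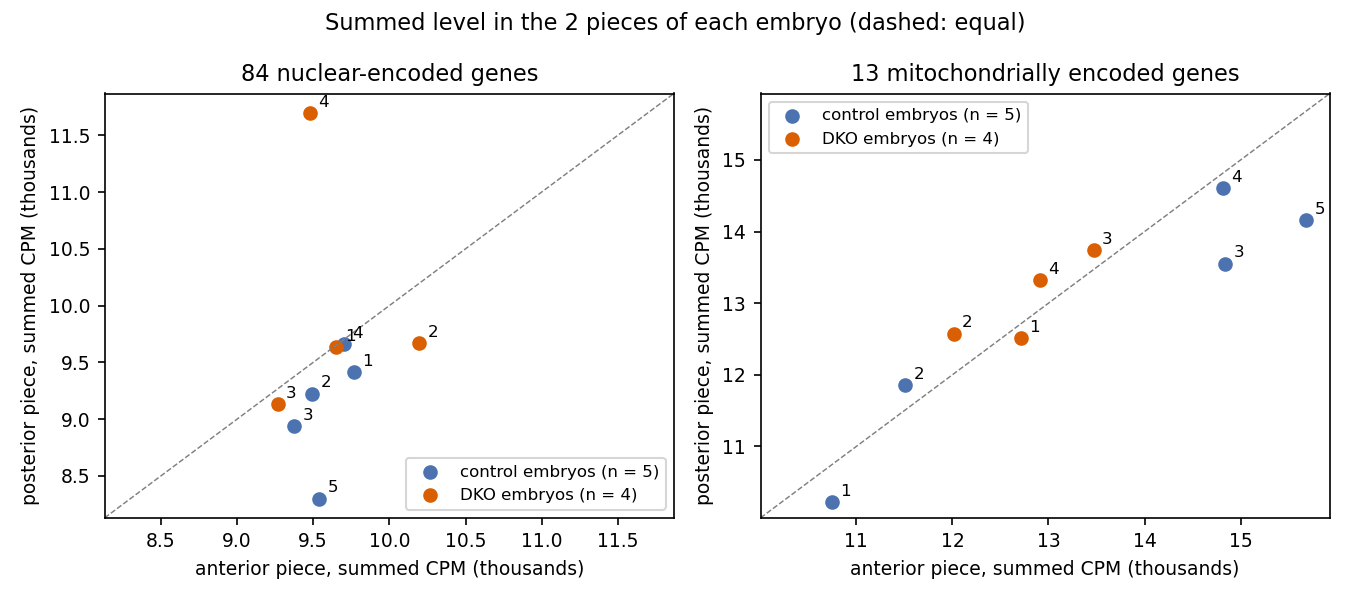
Summed CPM in the posterior piece (y axis) against the anterior piece (x axis) of each embryo, in units of 1000 CPM, for the 84 nuclear genes (left) and the 13 mitochondrially encoded genes (right), with embryo numbers and a dashed line of equality. DKO embryo 4 lies far above the line at 11698 CPM on the left, while on the right the embryos lie along the line from 10222 to 15681 CPM.

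Of the other genes of the pathway, no gene of any list passed a test between genotypes. In controls, 5 of 45 assembly factors were lower in the posterior piece and none higher, a share of 11.1% against the 13.3% of all genes given above. Of these, Cox20 (-0.53, SE 0.11, adjusted p = 0.00266) and Cox19 (-0.27, SE 0.06, adjusted p = 0.00491) serve the assembly of complex IV and Sdhaf1 (-0.33, SE 0.07, adjusted p = 0.00534) that of complex II. Among 16 regulators of mitochondrial biogenesis, Pprc1, a relative of PGC-1alpha, was higher (0.25, SE 0.06, adjusted p = 0.00841) and Esrra, a nuclear receptor that acts with it, was lower (-0.27, SE 0.07, adjusted p = 0.0173). Of 10 electron carriers and related genes Coq7, an enzyme of ubiquinone synthesis, was lower (-0.17, SE 0.05, adjusted p = 0.0306). These are 6.25% of the regulators in each direction and 10% of the carriers, below the 12.1% higher and 13.3% lower of all genes. None of 14 citric acid cycle enzymes passed in controls, and none of these 4 lists had a gene past the threshold in DKO. The summed level of citric acid cycle enzymes was 2165 ± 47.8, 2143 ± 15.6, 2102 ± 86.3 and 2135 ± 55.2 CPM in anterior control, anterior DKO, posterior control and posterior DKO pieces.

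The cell make-up of the pieces differed between regions by the marker lists. Neural tube markers (7 of 7) and myotome markers (6 of 7 tested) were lower in the posterior control piece, cardiac muscle markers fell in 3 of 6, and endothelial markers in 2 of 7. Somite and sclerotome markers went both ways there, with 3 of 7 higher and 3 lower. Markers of primitive erythroid cells varied widely between embryos, with sums of 988 to 4757 CPM in anterior controls, 1243 to 2074 in anterior DKO, 1395 to 2264 in posterior controls and 1692 to 3444 in posterior DKO, where embryo 4 was the highest. Between genotypes, 1 marker passed, Lyve1 of endothelium in the anterior piece. At an unadjusted p under 0.05, 4 of 7 somite and sclerotome markers were lower in DKO in each piece, with a median log2 fold change of -0.42 in the anterior (where 1 was higher) and -0.56 in the posterior piece. By the same measure 6 of 7 neural tube markers were higher in anterior DKO (median 0.38) and 2 of 7 in posterior DKO (0.31). Myotome markers were higher in anterior DKO in 5 of 7 (0.52) and in posterior DKO in 0 of 4 (0.15). Gut endoderm markers were higher in 1 of 6 (0.27) and 2 of 7 (0.29), and in the anterior piece 2 of 7 endothelial markers (-0.16) and 2 of 6 cardiac ones (0.11) were lower. Primitive erythroid markers had log2 fold changes below 0 in 8 of 8 in the anterior piece (median -0.67), none of them with a p under 0.05. They were higher in posterior DKO in 6 of 8 (0.48) and in the test of the difference between the pieces in 7 of 8 (1.11). The part of any of these cell types in the levels of the respiratory chain genes was not tested.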

How the data were processed

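The deposited table holds expected counts per Ensembl gene from RSEM on GRCm38, not scaled between libraries, per the file headers and the submitters' processing notes, which also name cutadapt and CASAVA. Versions and the use of the read strand are not given in the sources used here, so overlapping genes on opposite strands are uncertain. Reads were single-end, of 61 bases, per the labels. Symbols, biotypes and lengths came from GENCODE M21, which held 53360 of 53465 identifiers. The release 91 annotation named by the table was not used here. The members and lists were chosen with earlier results of these data known. Of rows matching the name pattern, 12 that are not protein coding were left out, among them Ndufb4c with a mean of 520 counts and Ndufb1-ps with 463. Ndufb4c is a processed pseudogene of Ndufb4, which had 129 to 324 counts, so reads could be split between them.

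Expected counts were rounded and tested in R 4.3.3 with edgeR 4.0.16 (filterByExpr with a minimum count of 10 and total of 15, TMM, glmQLFit, glmQLFTest), with p-values adjusted by Benjamini-Hochberg over all genes tested and a threshold of 0.05. The SE is the log2 fold change divided by the root of F. Each comparison was fitted on its own groups, and the interaction on all 18 libraries. The code was tested on simulated data. After removal of group means, the pieces of 1 embryo correlated over genes at 0.256 to 0.57 (9 pairs) and pieces of different embryos at -0.283 to 0.0916 (32 pairs), so the numbers pair the pieces. P-values measure the spread between embryos within the groups of this series. Those of the main region and interaction fits take the 2 pieces of an embryo as independent. Intervals of counting error are not given, and 3 counts equal 0.0791 to 0.233 CPM. Named members were those past the threshold between genotypes, isoform pairs, the highest and lowest per length, and the 3 smallest p-values per genotype comparison. Between regions, up to 2 members per direction and complex were added, those with the largest changes among called members averaging 50 counts or more. Other members in the text were named after their values were seen, as were at most 4 genes past the threshold per list. Alternatives were RLE and upper-quartile scaling, library totals, DESeq2 1.42.0, 2 other filters, somite number as covariate, one fit of all libraries, the embryo block, and each embryo left out. Promoters came from the RefSeq table of GRCm38.p6 with 32851 windows, and Atp5f1, Cox4i2 and Sdhc had none there.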

Additional observations from a re-analysis of the deposited data

Results flagged for a closer look

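Libraries far from the rest of their group were sought in 136 checks, of the 28 members named by the rule for named genes that passed the filter and of 6 sums (all members and each complex) in 4 groups, by the gap to the nearest library over the range of the group. Chance gives about 1 in 20 such cases, and 14 were found, 9 of them in the posterior piece of DKO embryo 4. Over all 80 members that passed the filter, 320 checks found 29, of which 18 were high values in that library. In that library the complex III sum was 1053 CPM, and Atp5g1 was at 164.9, Cox6b1 at 168.5, Cox6b2 at 6.249, Ndufa1 at 36.26, Ndufa13 at 95.21, Ndufc2 at 98.29, Uqcr10 at 82.41 and Uqcrq at 113.4 CPM, each the highest of its group. Atp5g1 was low at 107.2 CPM and Cox6b1 high at 128.1 CPM in the anterior piece of DKO embryo 2. In the anterior piece of control embryo 4 Atp5f1 was high at 335.3 CPM and Ndufa4l2 low at 0.9196 CPM. Ndufc1 was low at 24.79 CPM in the posterior piece of control embryo 5. Other genes under 1000 bases were high in the library of DKO embryo 4 and low in that of control embryo 5, by the medians given above. The part of RNA quality or library preparation in this was not tested.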

How the results depend on the processing

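No called result changed direction past the threshold under any alternative. In the anterior piece the number of genes called between genotypes, 6 of all genes, was 296 with DESeq2 (2 respiratory chain genes higher), 83 without a filter, 84 with somite number as covariate, 19 in one fit of 18 libraries and 11 after removal of the length trend, and 1 to 57 with an embryo left out, the most without DKO embryo 2. In the posterior piece 2 genes became 161 with DESeq2, 14 without a filter, 1 with a filter at a mean of 50 counts, 7 with somite number and 51 in one fit of all libraries, and 2 to 24 with an embryo left out, the most without DKO embryo 2. No respiratory chain gene was called in the posterior piece under any of these. The interaction gave 10 genes with DESeq2 and 0 to 1 with an embryo left out. With the embryo as replicate block, 17 respiratory chain genes were lower in the posterior piece of controls, not 11, and the block changed no other call counted here by over 1.5 times. Lower members in controls numbered 4 without a filter (4.82%, where 5.81% of all genes were) and 7 after removal of the length trend, which gave 2 higher, and 3 to 7 with an embryo left out. In DKO, the 2 higher members were 4 with DESeq2 and 4 after removal of the length trend, which gave 1 lower (5.06 and 1.27%, where 10.8% of all genes were called each way). They were 1 with the filter at a mean of 50 counts, which left out Ndufa4l2 (mean of 44.9 counts) before the test. With a DKO embryo left out the higher members were 1 to 2, the lower ones 0 to 1, and all genes called 1728 to 2550. Depth limits Cox7a1, which had 3 to 23 counts a library, Ndufa4l2, with a mean of 38.9 counts over the 18 libraries, and the 4 members that did not pass the filter.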
